A study of Mus musculus with 12 samples.

Results

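Desmosomes are spot-like junctions that join neighbouring epithelial or heart muscle cells and tie the contact to intermediate filaments. The results concern 8 genes of this junction and its plakophilin family, of the 23077 genes in the deposited table. They are the desmosomal cadherins Dsg2 and Dsc2, the plaque proteins plakoglobin (Jup) and plakophilins 1 to 4 (Pkp1, Pkp2, Pkp3 and Pkp4), and the linker desmoplakin (Dsp). They were chosen by symbol, with earlier results of these same libraries known, among them the change of Dsp, so their levels and calls in the same contrasts are a description and no p-value is given for them. All 8 were found in the table, once each.

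The cadherins of a desmosome reach across the gap between cells, and their tails bind plakoglobin and plakophilins, which in turn hold desmoplakin. Desmoplakin grips keratin, vimentin or desmin filaments. Fibroblasts are mesenchymal cells and are not known for mature desmosomes, whereas stratified epithelia and heart muscle depend on them.

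The cells were primary mouse embryonic fibroblasts of the Hb9::GFP genotype, taken during their direct conversion to induced motor neurons. In the RISDD group (3 libraries) the conversion factors were delivered together with a retroviral transcript coding for HRAS(G12V), then an internal ribosome entry site (IRES), then p53DD fused to a SNAP tag. In the SDDIR group (2 libraries) the SNAP-p53DD fusion stood before the IRES and HRAS(G12V) after it. The SDD group (3 libraries) received the SNAP-p53DD fusion without HRAS(G12V), and the NIL group (3 libraries) received neither. What all 4 groups share is the NIL retrovirus, which codes for Ngn2, Isl1 and Lhx3 joined by 2A peptides, the move to N3 medium at 3 days post infection (dpi) and collection at 4 dpi. RepSox, which blocks the receptor for TGF-beta, was given from 3 dpi to every group but NIL, and the same groups were sorted for SNAP staining whereas live single cells were sorted for NIL. In SDD against NIL the effects of p53DD, RepSox and the sort therefore cannot be told apart. RISDD against SDD adds HRAS(G12V) and also places the fusion after an IRES, and RISDD against SDDIR moves both coding parts. Effects of HRAS(G12V) and of the fusion's position cannot be told apart in either comparison. HRAS(G12V) is a constitutively active form of a small GTPase that drives MAPK signalling, and p53DD is a dominant-negative fragment of p53. The labels call the libraries biological replicates A to C and say nothing of separate cultures, so p-values speak only to the spread among these libraries.

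Values are called signal here, which is a gene's read count divided by a constant of its library. The libraries held 14872639 to 29815073 reads. The NIL C library stood apart, with 0.537% of its signal in mitochondrially encoded genes against 2.60% to 4.04% in the other 10 libraries, so the differences of SDD against NIL are also given without it for the genes that turn on them. Markers of the labelled cell type were present, since all 8 fibroblast markers looked at (collagens, Dcn, Lum, Thy1 and the PDGF receptors) were detected in each group. Their summed signal was 78560 to 81159 in RISDD, 134012 to 147528 in SDDIR, 482608 to 606136 in SDD and 600582 to 1002000 in NIL.

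Both desmosomal cadherins were highest in the HRAS(G12V) groups. Dsg2 codes for desmoglein 2, the desmoglein found in nearly all tissues that have desmosomes. Its signal was 2398, 1600 and 1823 in RISDD libraries A, B and C, 727 and 881 in SDDIR A and B, 7.89, 6.77 and 5.53 in SDD, and 2.44, 6.69 and 0 in NIL. Both HRAS(G12V) groups lay far above the other libraries and did not overlap each other, whereas SDD and NIL overlapped near the lower limit of detection. In reads, Dsg2 was counted 5828 times in RISDD and 1601 times in SDDIR, but 23 times in SDD and 9 times in NIL. On the log2(signal + 1) scale, which understates changes of genes as low as this, the difference was 7.96 (SE 0.58) for RISDD against SDD and 6.71 (SE 0.65) for SDDIR against SDD. RISDD exceeded SDDIR by 1.26, with a 95% interval of -0.18 to 2.70. That interval uses a spread shared by all 4 groups, NIL C included, and without NIL C the same difference was called. SDD against NIL differed by 1.36 (SE 0.58), a value that was 0.58 without NIL C and 2.05 without NIL B, and was called in the last of these alone. In bulk RNA, fewer cells of a type and less RNA per cell cannot be told apart, here and below.

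Dsc2 codes for desmocollin 2, the partner cadherin of Dsg2 in simple epithelia and heart. Its signal was 683, 650.2 and 617 in RISDD, 249.8 and 247 in SDDIR, 16.9, 19.3 and 35.6 in SDD, and 57.0, 49.0 and 8.74 in NIL. The order of the groups was RISDD, SDDIR and then SDD and NIL together, with no overlap between the first 2 groups or between them and the rest. Dsc2 differed by 4.78 (SE 0.57) on the log2 scale in RISDD against SDD, by 3.39 (SE 0.64) in SDDIR against SDD and by 1.38 in RISDD against SDDIR (95% interval -0.03 to 2.80). The interval again uses the spread shared by all 4 groups, and without NIL C the same difference of 1.38 was called. The difference of SDD against NIL depended on single libraries. It was -0.36 (SE 0.57) with all libraries and -1.18 without NIL C, where it was called, and 0.10 without NIL A.

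To set both cadherins side by side, signal was divided by the length in kilobases of each gene's longest coding transcript, an approximate scale since the annotation (GENCODE M21) is of an earlier build than the files. The cadherins together reached 563, 418 and 449.5 per kilobase in RISDD, 180.0 and 206 in SDDIR, 5.02, 5.35 and 8.65 in SDD and 12.7, 11.8 and 1.89 in NIL. Dsg2 made up 66.4% to 73.8% of that sum in RISDD and 70.0% to 74.1% in SDDIR, against 11.1% to 27.3% in SDD and 0% to 9.87% in NIL. The greater part was thus Dsg2 in RISDD and SDDIR and Dsc2 in SDD and NIL. The shares in SDD and NIL rest on few reads. Dsg2 had 23 reads in SDD and 9 in NIL, and Dsc2 had 93 in SDD and 123 in NIL.

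**Figure D1:**
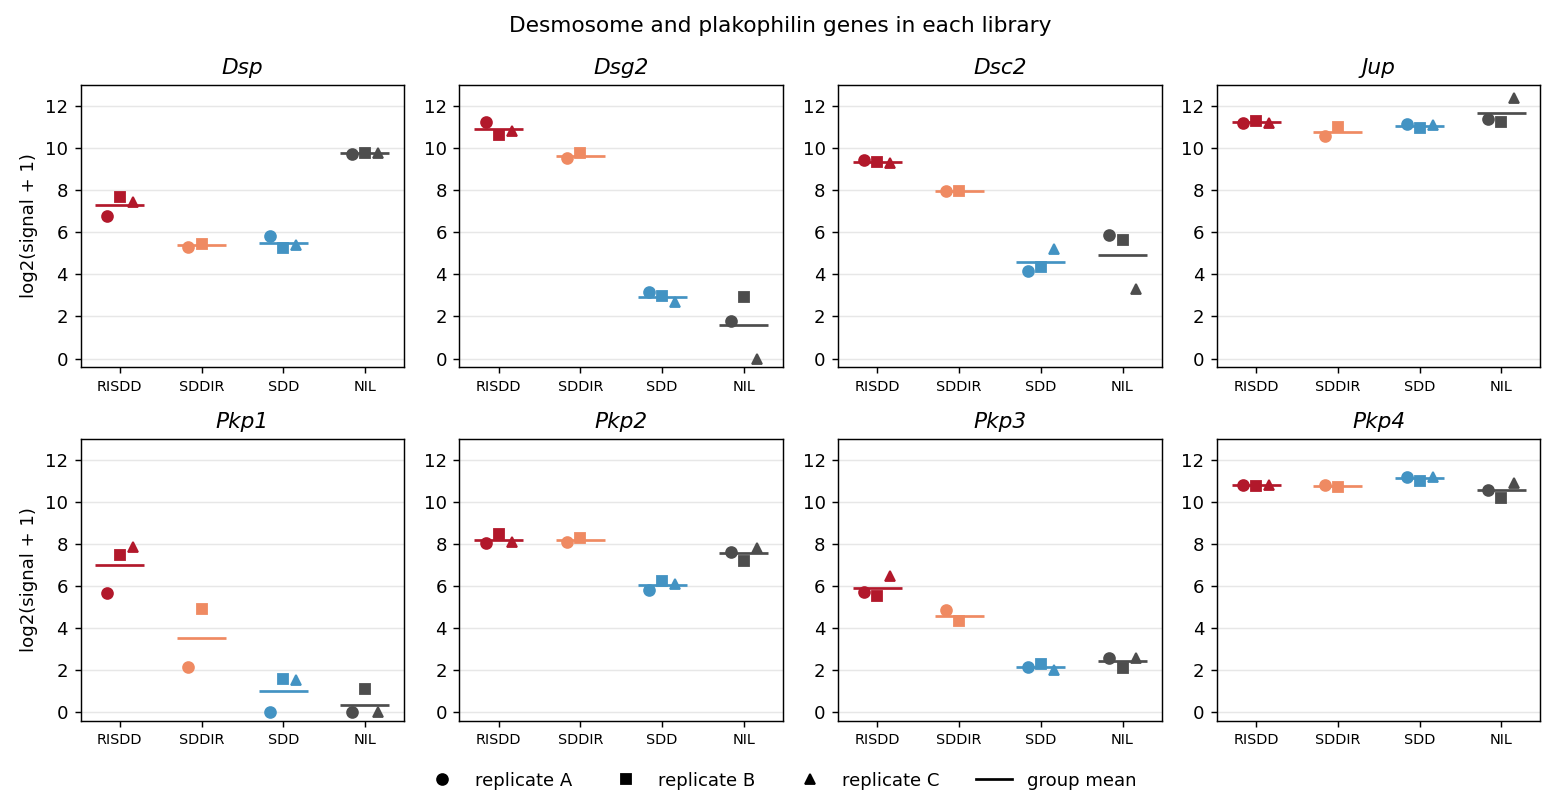
Signal of each of the 8 genes, plotted as log2(signal + 1) on the vertical axis for each library (points) of RISDD, SDDIR, SDD and NIL, with a bar at the mean of the log2 values. Dsg2 and Dsc2 lie high in RISDD and SDDIR and low elsewhere, Dsp is highest in NIL at 839.8 to 882, and Jup and Pkp4 stay above 1159 in all libraries.

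Desmoplakin, the plakin that fastens the plaque to filaments, did not follow the cadherins. Because its level spans the groups so differently, the 250 bases before its RefSeq transcription start are shown with those of Pkp4, for which the table holds 2 starts and the first is printed. Both come from RefSeq's table for GRCm38.p6 (an earlier build than the GRCm39 named for the files) and lie on the plus strand, at chr13:38151044-38151293 for Dsp and at chr2:59160600-59160849 for Pkp4. They are written 5′ to 3′ with capitals marking GC boxes (GGGCGG on either strand).
Dsp: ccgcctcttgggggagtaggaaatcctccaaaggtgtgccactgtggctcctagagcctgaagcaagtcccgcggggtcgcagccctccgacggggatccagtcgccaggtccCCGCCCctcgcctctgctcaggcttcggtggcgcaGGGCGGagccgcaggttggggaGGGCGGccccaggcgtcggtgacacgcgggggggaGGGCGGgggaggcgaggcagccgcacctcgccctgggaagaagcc
Pkp4: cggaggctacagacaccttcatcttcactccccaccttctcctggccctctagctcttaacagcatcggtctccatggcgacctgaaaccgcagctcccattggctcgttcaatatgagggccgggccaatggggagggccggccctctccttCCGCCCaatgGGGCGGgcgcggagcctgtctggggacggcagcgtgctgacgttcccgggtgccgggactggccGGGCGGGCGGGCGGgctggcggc

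The Dsp window was 72.4% G and C and held 4 GC boxes, opening 137, 102, 80 and 45 bases before the start. The Pkp4 window was 68.4% G and C and held 5, opening 97, 87, 23, 19 and 15 bases before the start, of which the last 3 overlap. At least 1 GC box stood in 32.74% of all 32851 RefSeq windows of this length. On both strands of the 2 printed windows, no match was found to the AP-1 motif TGANTCA (in 6.75% of all windows), the E-box CANNTG (66.22%), the TATA box TATAAA (12.37%), the ETS motif CCGGAA (12.03%) or the grainyhead-like motif AACCNGTT (1.79%). The window before the second Pkp4 start, at chr2:59161619-59161868, held 0 GC boxes and 2 E-boxes, 210 and 47 bases before that start. These letter matches say nothing of binding. Of the 8 genes, 3 were matched in the table (Dsp, Jup and Pkp4), and Jup is named only.

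Dsp signal was 110.1, 206 and 175 in RISDD, 39.0 and 42.7 in SDDIR, 56.4, 37.7 and 41.2 in SDD, and 839.8, 882 and 864 in NIL. NIL was highest and its libraries lay close together, RISDD came next without overlap, and SDDIR and SDD overlapped. SDD against NIL differed by -4.25 (SE 0.25) on the log2 scale and by -4.25 without NIL C. RISDD against SDD differed by 1.81 (SE 0.25) and RISDD against SDDIR by 1.93 (SE 0.27). SDDIR against SDD differed by -0.12, with a 95% interval of -0.73 to 0.49. RISDD at 164 ± 49.0 (SD, n = 3) remained below NIL at 862 ± 21.0 (SD, n = 3).

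Levels of cell type markers are set beside those of Dsp here. The summed signal of 6 leukocyte markers was 277 to 645 in SDD, 351 to 549 in SDDIR, 769 to 1164 in RISDD and 1039 to 4631 in NIL. Within NIL this sum varied widely, and Dsp there was 839.8 to 882. The sum of 6 mesothelial markers, a cell type that has desmosomes, was 77.8 to 306 in SDD and 305 to 625 in NIL, most of it Msln, and these ranges touched. In RISDD the mesothelial sum was 1953 to 2210, above NIL, whereas Dsp was below NIL there. Of 10 epithelial markers, 4 (Cdh1, Cldn4, Cldn7 and Esrp1) were at 0 in all SDD libraries and 4 (Cldn4, Cldn7, Elf3 and Esrp1) in all NIL libraries. The 10 summed to 21.4 to 33.8 in SDD and 77.3 to 143 in NIL, without overlap and lower in SDD, as Dsp was. Their sum was 2414 to 3742 in SDDIR and 8605 to 12718 in RISDD. The part of other cell types in the Dsp levels was not tested.

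Plakoglobin, the armadillo protein that binds both desmosomal and classical cadherins, was abundant in all libraries. Jup signal was 2376, 2481 and 2301 in RISDD, 1536 and 2024 in SDDIR, 2228, 1962 and 2179 in SDD, and 2672, 2454 and 5388 in NIL. RISDD lay above SDD and SDDIR by a narrow gap, SDDIR and SDD overlapped, and NIL C lay far above the other NIL libraries. The log2 difference was -0.63 (SE 0.25) in SDD against NIL with all libraries, -0.27 without NIL C and -0.84 without NIL B, and was called in the last of these alone. It was -0.27 (SE 0.28) in SDDIR against SDD, 0.17 (SE 0.25) in RISDD against SDD and 0.44 (SE 0.28) in RISDD against SDDIR. The difference of RISDD against SDDIR was called without NIL C, which enters it only through the shared spread. Per kilobase, Jup averaged 744 in RISDD, 555 in SDDIR, 662 in SDD and 1093 in NIL. In each of these groups that was the highest mean per kilobase of the 8 genes.

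Among the plakophilins, which link cadherin tails to desmoplakin, Pkp1 is the one known from stratified epithelia. Its signal was 49.5, 178 and 232 in RISDD, 3.39 and 28.5 in SDDIR, 0, 1.93 and 1.84 in SDD, and 0, 1.11 and 0 in NIL. These are 509 reads in RISDD, 28 in SDDIR, 5 in SDD and 1 in NIL. RISDD did not overlap SDDIR, and the lower SDDIR library, with 4 reads, lay close to the SDD libraries. The log2 difference was 5.98 (SE 0.85) in RISDD against SDD and 3.49 (SE 0.95) in RISDD against SDDIR, and both sizes depend on the constant added to such low values. The call in RISDD against SDDIR was lost without any 1 of 6 libraries (NIL A, SDD B, SDD C, RISDD B, RISDD C or SDDIR A), and the difference was 2.12 without SDDIR A and 4.87 without SDDIR B.

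Pkp2, the plakophilin of simple epithelia and heart muscle, separated the groups in another way. Its signal was 263, 353 and 267 in RISDD, 267 and 311 in SDDIR, 55.3, 74.5 and 67.0 in SDD, and 197, 144 and 225 in NIL. RISDD and SDDIR overlapped and were highest, NIL was intermediate and SDD lowest, with no overlap between these 3 levels. SDD against NIL differed by -1.50 (SE 0.22) on the log2 scale and by -1.36 without NIL C, SDDIR against SDD by 2.13 (SE 0.24) and RISDD against SDD by 2.15 (SE 0.22). RISDD against SDDIR differed by 0.02, with a 95% interval of -0.51 to 0.55.

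Pkp3, a plakophilin found in most epithelia, was below 100 in every library. Its signal was 50.7, 44.5 and 86.1 in RISDD, 27.9 and 19.0 in SDDIR, 3.38, 3.87 and 3.07 in SDD, and 4.88, 3.34 and 4.85 in NIL. Each HRAS(G12V) library exceeded each SDD and NIL library, and SDD and NIL overlapped at 12 and 14 reads in all. The log2 difference was 3.73 (SE 0.39) in RISDD against SDD, 2.44 (SE 0.44) in SDDIR against SDD and 1.29 (95% interval 0.33 to 2.26) in RISDD against SDDIR.

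Pkp4, an armadillo relative of the plakophilins found mostly at adherens junctions, was the most abundant plakophilin in every library. It had 1759, 1695 and 1781 in RISDD, 1757 and 1657 in SDDIR, 2310.4, 2010.3 and 2318 in SDD, and 1519, 1159 and 1865 in NIL. SDD lay above the other groups without overlap, and NIL overlapped both RISDD and SDDIR. SDD against NIL differed by 0.57 (SE 0.16) on the log2 scale and by 0.73 without NIL C. That call was lost without any 1 of the other 10 libraries (0.39 without NIL B). SDDIR against SDD differed by -0.37 (95% interval -0.77 to 0.03) and RISDD against SDD by -0.34 (95% interval -0.69 to 0.02), and RISDD against SDDIR by 0.03 (95% interval -0.37 to 0.43).

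Per kilobase, the plakophilins as a family summed to 499 to 557 in RISDD, 478 to 482 in SDDIR, 463 to 527 in SDD and 302 to 483 in NIL. Within the sum, Pkp4 took 76.3%, 67.8% and 69.3% in RISDD, 78.9% and 75.1% in SDDIR, 96.1%, 94.1% and 95.4% in SDD and 82.6%, 83.2% and 83.7% in NIL. Leaving Pkp4 out, Pkp2 was 76.3%, 69.4% and 53.6% of what remained in RISDD, 89.9% and 89.4% in SDDIR, 94.2%, 93.6% and 94.1% in SDD and 97.6%, 97.3% and 97.9% in NIL. The summed level of the family in RISDD and SDDIR thus lay near that of SDD while its make-up differed.

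**Figure D2:**
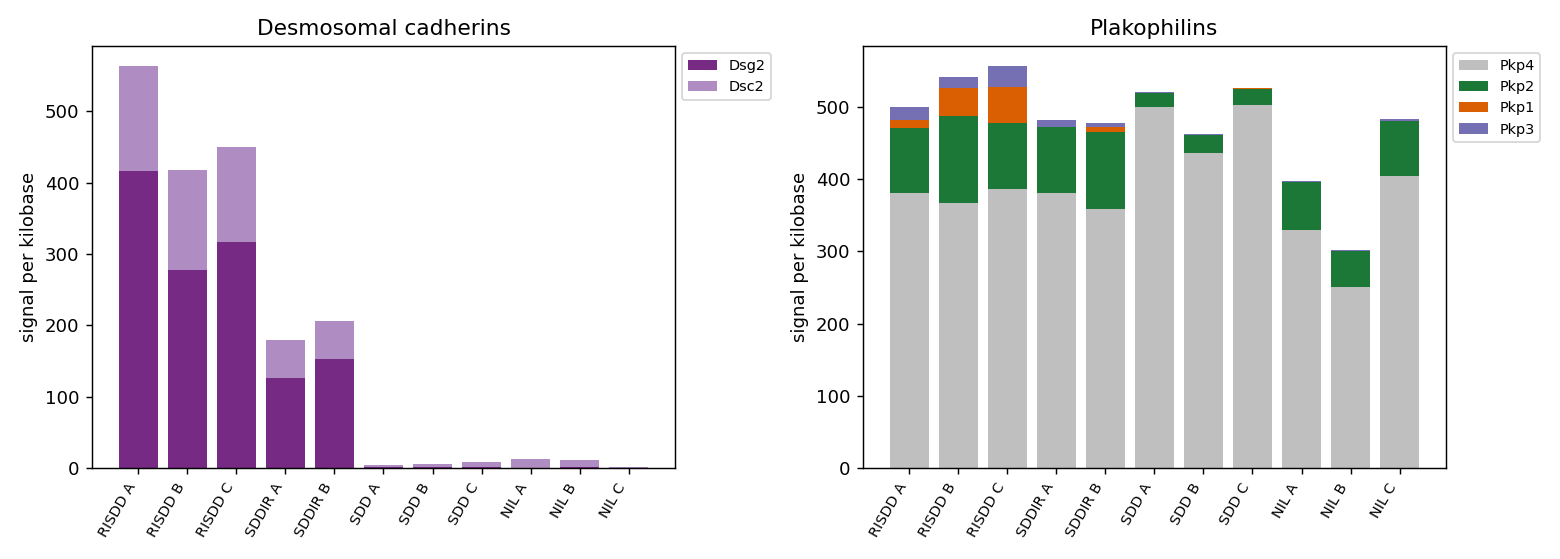
Stacked signal per kilobase (vertical axes) in each library of RISDD, SDDIR, SDD and NIL, for the desmosomal cadherins on the left and the plakophilins on the right. The cadherin bars reach 418 to 563 in RISDD and at most 12.7 in SDD and NIL, while the plakophilin bars stay between 302 and 557 and carry visible Pkp1 and Pkp3 mainly in RISDD.

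All 8 genes passed the filter on low values (signal of at least 10 in at least 3 libraries), but Dsg2, Pkp1 and Pkp3 reached 10 in no SDD or NIL library and passed only through the HRAS(G12V) groups. Calls are limma tests with a Benjamini-Hochberg adjusted p under 0.05 over all 14207 tested genes, and the counts that follow describe genes picked with these values known. In SDD against NIL, 1 of the 8 was called higher (Pkp4) and 2 lower (Dsp and Pkp2), where 9.32% of all tested genes were called higher and 8.26% lower. Without NIL C, 1 was called higher and 3 lower. In SDDIR against SDD, 4 were called higher (Dsg2, Dsc2, Pkp2 and Pkp3) and 0 lower, where 8.66% of all tested genes were called higher and 13.9% lower. That is 1230 higher and 1969 lower over all genes, a split that became 1718 and 1790 when libraries were scaled by quantiles.

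In RISDD against SDD, 6 of the 8 were called higher (Dsp, Dsg2, Dsc2, Pkp1, Pkp2 and Pkp3) and 0 lower, where 20.0% of all tested genes were called higher and 22.6% lower. In RISDD against SDDIR, 2 were called higher (Dsp and Pkp1) and 0 lower, where 4.64% were called higher and 5.05% lower, and without NIL C the count of higher genes was 6 (Dsp, Dsg2, Dsc2, Jup, Pkp1 and Pkp3), with the differences themselves unaltered since NIL enters them only through the shared spread. Pkp1 was also called in SDDIR against SDD without SDDIR A (3.86, against 2.49 with it), and Pkp4 was called lower in RISDD against SDD without NIL B or NIL C and in SDDIR against SDD without NIL C. The median log2 difference of the 8 genes was 2.94 in RISDD against SDD, 2.28 in SDDIR against SDD, 1.28 in RISDD against SDDIR and -0.31 in SDD against NIL. Over all tested genes the medians in this order were 0.02, 0.01, 0.01 and 0.05. These medians are no test, since the 8 genes were picked with these values known. Dsg2, Pkp1 and Pkp3 also passed the filter only through the HRAS(G12V) groups. The comparisons of RISDD and of SDDIR with SDD share the SDD libraries.

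**Figure D3:**
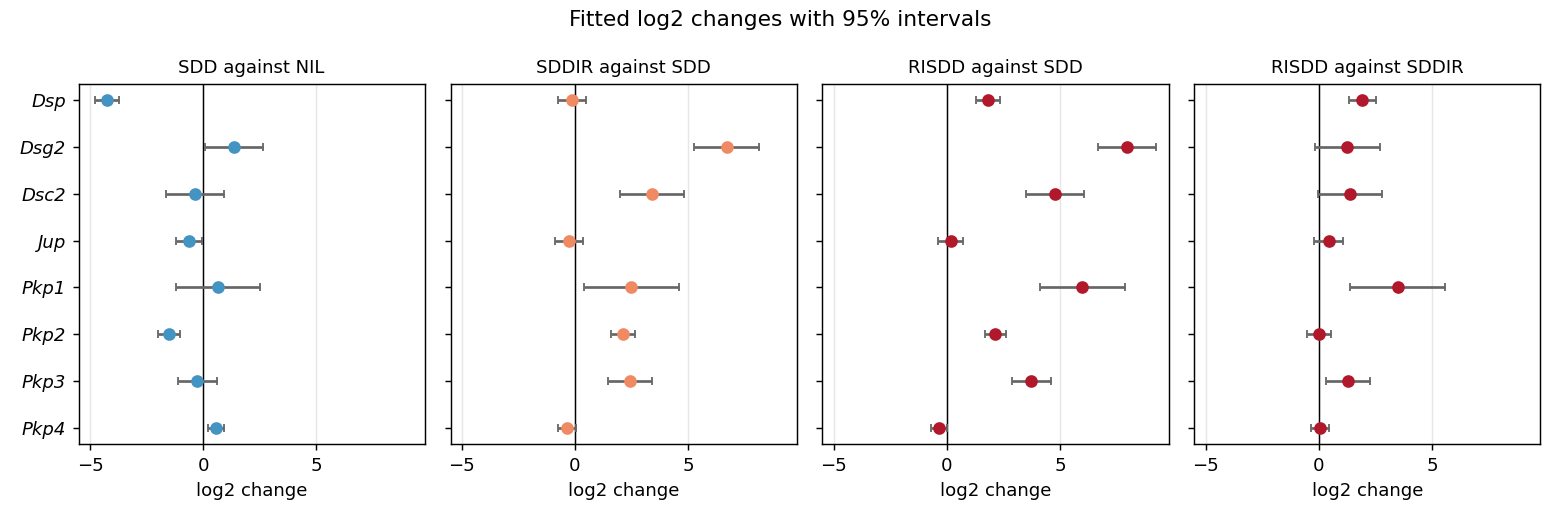
Log2 difference of each of the 8 genes with its 95% interval (horizontal axis) in the 4 comparisons. For RISDD against SDD the points run from -0.34 for Pkp4 to 7.96 for Dsg2, and the Dsp point lies at -4.25 in SDD against NIL and at 1.81 in RISDD against SDD.

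Other genes of the junction were read from 5 lists and, unlike the 8, are given with adjusted p-values from the same limma fit. These lists too were drawn up with earlier results known, so their p-values describe chosen genes and are no independent test. Several of their genes (Dsc1, Dsc3, Dsg3, Krt8, Cdh1, Grhl1, Grhl2, Grhl3 and Esrp2) reached a signal of 10 in fewer than 3 of the SDD and NIL libraries, so they passed the filter through the HRAS(G12V) groups, and no p-value is given for those named with values. Trp63 passed through SDD and Krt7 through NIL in the same way, so counts that include these genes are given as a description only. The shares of called genes are to be read beside those of all tested genes: in RISDD against SDD 20.0% higher and 22.6% lower, in SDDIR against SDD 8.66% and 13.9%, in SDD against NIL 9.32% and 8.26%, and in RISDD against SDDIR 4.64% and 5.05%. Of 10 other desmosomal and envelope-plaque genes, 7 were tested. In RISDD against SDD, 6 were called higher (Dsc1, Dsc3, Dsg1c, Dsg3, Evpl and Perp), of which 3 passed the filter through the HRAS(G12V) groups, and Ppl (periplakin) fell, which is 14.3% of the 7. Perp, a tetraspan protein needed for desmosomes in stratified epithelia, had a mean signal of 476 in RISDD and 22.3 in SDD (log2 difference 4.42, adjusted p = 2.48e-05). Dsg1c, a desmoglein 1 gene that shares sequence with its copies so that reads may be split among them, had 302 in RISDD and 20.3 in SDD (3.93, adjusted p = 1.47e-04). In SDDIR against SDD, 6 were called higher, with the same 3 among them, and Ppl fell, with Dsg1c at 174 in SDDIR and 20.3 in SDD (3.14, adjusted p = 0.00317). Perp was the 1 of the 7 that fell in SDD against NIL, at 22.3 in SDD and 249.9 in NIL (-3.39, adjusted p = 0.00119, and -3.66 without NIL C). It was also the 1 that rose in RISDD against SDDIR, at 476 in RISDD and 66.5 in SDDIR (2.77, adjusted p = 0.00778), a call lost without SDDIR A or SDDIR B (adjusted p up to 0.0765). Without NIL C, Ppl was called higher in SDD against NIL (1.55 and adjusted p = 0.0108, against 0.87 and 0.276 with all libraries).

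Of 10 intermediate filament genes that desmosomes can anchor, 6 were tested. In RISDD against SDD, 5 were called higher, or 83.3% (Krt8 among them by way of the filter), and Des did not pass. Krt18, a keratin of simple epithelia, had a mean of 7366 in RISDD and 13.3 in SDD (log2 difference 9.13, adjusted p = 1.37e-07). Its partner Krt8 had 3386 in RISDD and 1.99 in SDD, where it lay between 0 and 3.07. Vim, the filament protein of fibroblasts, had 88442 in RISDD and 40592 in SDD (1.12, adjusted p = 0.00115), so keratins and vimentin were both higher. In SDDIR against SDD, 3 were called higher, or 50.0%, with Krt18 at 1885 in SDDIR and 13.3 in SDD (7.16, adjusted p = 1.18e-05), Krt8 at 1159.5 in SDDIR and 1.99 in SDD and Vim at 66443 in SDDIR and 40592 in SDD (0.71, adjusted p = 0.0452). The Vim call was lost in each fit that left out an SDD, RISDD or SDDIR library (adjusted p up to 0.236). Calls in SDD against NIL were lower for 5, or 83.3% (Krt7, Krt8, Krt18, Krt19 and Vim), among them Vim at 40592 in SDD and 82239 in NIL (-0.96, adjusted p = 0.0103, and -0.68 without NIL C). When only the groups compared were fitted, 0 of these 5 were called. In RISDD against SDDIR, Krt18 and Krt19 rose, with Krt18 at 7366 in RISDD and 1885 in SDDIR (1.97, adjusted p = 0.0206). That call was lost without any 1 RISDD or SDDIR library (adjusted p up to 0.179).

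Of 14 genes of adherens junctions and armadillo relatives, the junction that Pkp4 is also known from, 13 were tested. In RISDD against SDD, 5 (38.5%) were called higher and 2 (15.4%) lower, the lower share being under that of all tested genes. Cdh1 (E-cadherin), which reached a signal of 10 in RISDD alone, had a mean of 195 in RISDD and 0 in each SDD library, at least 71.8-fold higher against a floor of 3 reads per SDD library. Cdh11, a cadherin of mesenchyme, fell to 6316 in RISDD, against 20644 in SDD (-1.70, adjusted p = 7.34e-06), and Ctnnd2, a catenin of neurons, fell to 41.4, against 121 in SDD (-1.44, adjusted p = 0.0254). The Ctnnd2 call was lost without SDD A, SDD B, RISDD A or RISDD C (adjusted p up to 0.108). In SDDIR against SDD, 1 (7.69%) rose, near the share of all tested genes, and 3 (23.1%) fell. Cdh11 had 7168 in SDDIR and 20644 in SDD (-1.52, adjusted p = 1.30e-04), Ctnnb1 (beta-catenin) 9774 in SDDIR and 13425 in SDD (-0.46, adjusted p = 0.00947), and Ctnna1 (alpha-catenin) 8039 in SDDIR and 6371 in SDD (0.34, adjusted p = 0.0351). The Ctnnb1 call was lost without SDDIR A or SDDIR B (adjusted p up to 0.0808), and the Ctnna1 call in every fit that left out an SDD, RISDD or SDDIR library (adjusted p up to 0.200).

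In SDD against NIL, 1 gene of this list (7.69%) rose, near the share of all tested genes, and 3 (23.1%) fell. Cdh3 (P-cadherin) had a mean of 29.5 in SDD and 247 in NIL (-2.98, adjusted p = 0.0126, and -2.60 without NIL C), Arvcf, an armadillo protein, had 181 in SDD and 371 in NIL (-0.97, adjusted p = 0.0206, and -0.69 without NIL C), and Ctnna2, the neuronal alpha-catenin, had 219.8 in SDD and 133 in NIL (0.72, adjusted p = 0.0309, and 0.74 without NIL C). Leaving out SDD C ended all 3 of these calls (adjusted p up to 0.0584, 0.0748 and 0.106 over the left-out libraries), SDD B ended those of Arvcf and Ctnna2, and SDD A, NIL B or RISDD B that of Ctnna2. Without NIL C, Ctnnb1 (-0.27, adjusted p = 0.0120) and Ctnnd1 (-0.29, adjusted p = 0.00859) were also called lower in SDD against NIL. In RISDD against SDDIR, 2 (15.4%) were called higher and 0 lower. Cdh1 had 195 in RISDD and 2.37 in SDDIR, and Ctnna1 had 11127 in RISDD and 8039 in SDDIR (0.47, adjusted p = 0.0168), and the Ctnna1 call was lost without any 1 RISDD or SDDIR library (adjusted p up to 0.149).

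Transcription regulators of epithelial junction genes were read in 2 lists. Of 12 epithelial regulators, 7 were tested, of which 5 (71.4%) were called higher and 2 (28.6%) lower in RISDD against SDD. Of the 5, all but Klf5 passed the filter through the HRAS(G12V) groups, and the lower share was near that of all tested genes. Klf5, a zinc-finger factor of epithelia, had a mean of 1595 in RISDD and 239 in SDD (2.73, adjusted p = 2.10e-05), and Klf4, a relative that also acts in barrier epithelia, had 925 in RISDD and 1749 in SDD (-0.91, adjusted p = 0.00231). In SDDIR against SDD, 2 (28.6%) were called higher, Grhl2 by way of the filter, and 2 (28.6%) lower, with Klf5 at 647 in SDDIR and 239 in SDD (1.45, adjusted p = 0.00612, and up to 0.0543 without SDDIR A) and Klf4 at 889 in SDDIR and 1749 in SDD (-0.97, adjusted p = 0.00683, and up to 0.0827 without SDDIR B). In SDD against NIL, Klf4 alone was called, at 1749 in SDD and 865 in NIL (1.02, adjusted p = 0.00525, and 1.16 without NIL C). In RISDD against SDDIR, Klf5 alone was called, at 1595 in RISDD and 647 in SDDIR (1.28, adjusted p = 0.0244), and the call was lost without any 1 RISDD or SDDIR library (adjusted p up to 0.149).

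All 6 mesenchymal repressors, factors that bind and silence E-cadherin and other junction genes, were tested, and in RISDD against SDD 5 (83.3%) fell. Snai2 had a mean of 161 in RISDD and 702 in SDD (-2.11, adjusted p = 1.46e-05), Snai1 had 188 in RISDD and 895 in SDD (-2.20, adjusted p = 3.27e-04) and Twist1 had 1013 in RISDD and 2443 in SDD (-1.27, adjusted p = 0.00256). In SDDIR against SDD, 3 (50.0%) fell, with Snai1 at 242 in SDDIR and 895 in SDD (-1.84, adjusted p = 0.00472), Snai2 at 296 in SDDIR and 702 in SDD (-1.24, adjusted p = 0.00269) and Zeb2 at 1244 in SDDIR and 2118 in SDD (-0.76, adjusted p = 0.00580). The Snai1 call was lost without SDDIR A and the Zeb2 call without SDDIR B (adjusted p up to 0.0513 and 0.0545). The 2 that rose in SDD against NIL were Zeb2 at 2118 in SDD and 1254 in NIL (0.75, adjusted p = 0.00579, and 0.67 without NIL C) and Zeb1 at 4047 in SDD and 2819.5 in NIL (0.52, adjusted p = 0.0172, and 0.43 without NIL C). The Zeb1 call was lost without SDD B or SDD C (adjusted p up to 0.0691). Without NIL C, Snai1 was also called higher in SDD against NIL (1.33 and adjusted p = 0.00190, against 0.92 and 0.0772 with all libraries). In RISDD against SDDIR, Snai2 (161 in RISDD and 296 in SDDIR, -0.87, adjusted p = 0.0338) and Zeb1 (2218 in RISDD and 3169 in SDDIR, -0.51, adjusted p = 0.0434) fell, and both calls were lost without SDD B or any 1 RISDD or SDDIR library, that of Zeb1 also without NIL A or SDD C (adjusted p up to 0.282 and 0.293).

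**Figure D4:**
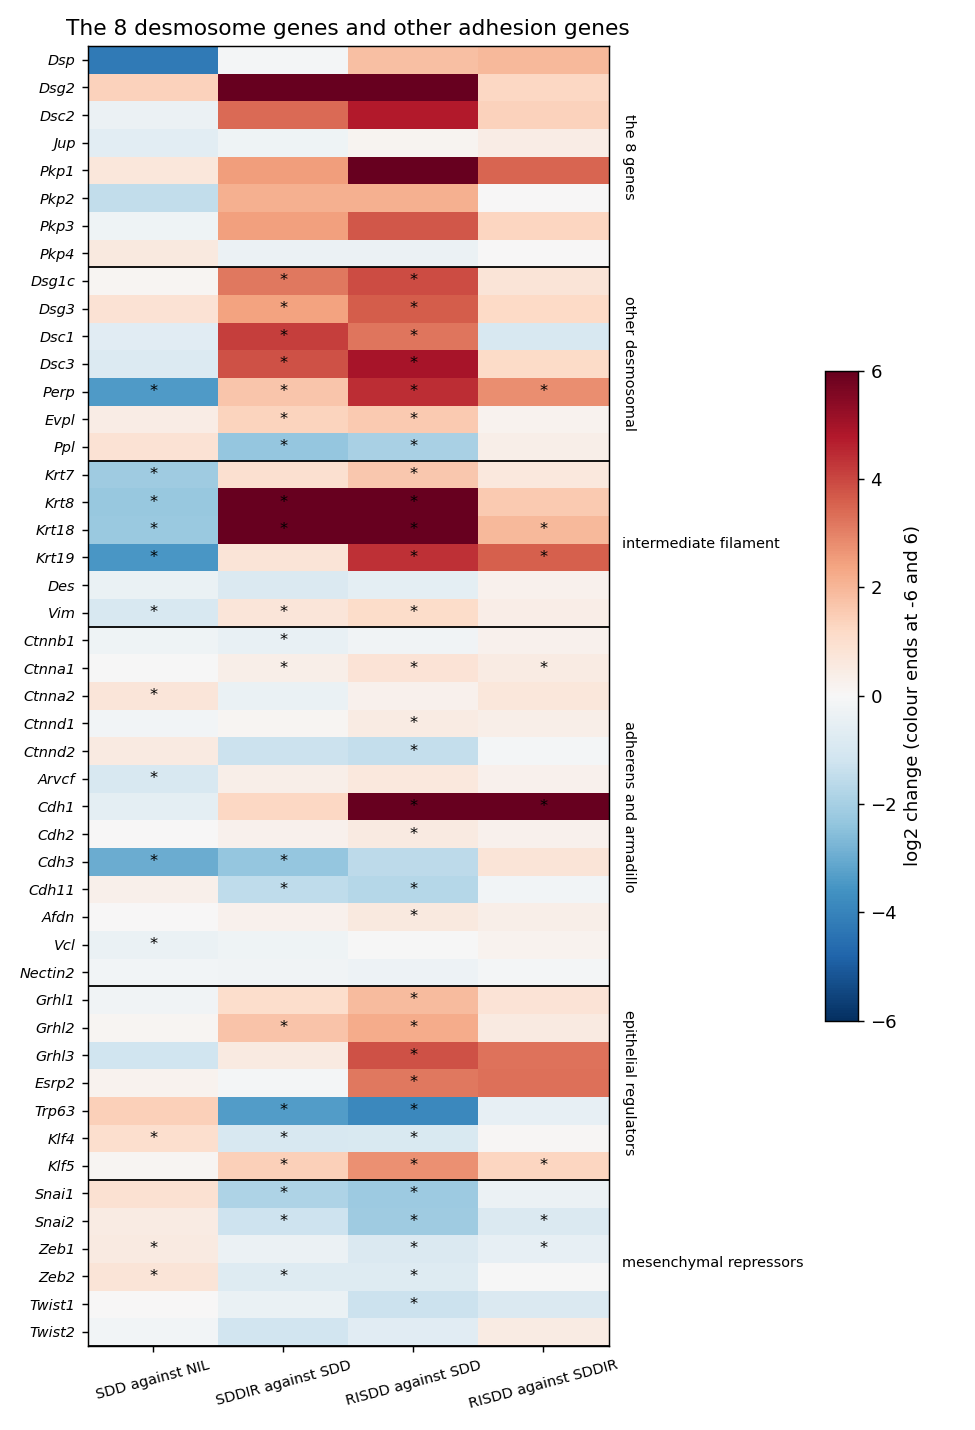
Log2 difference (colour, with the scale ending at the bounds marked on the bar) of the 8 genes and of the tested genes of the 5 lists in the 4 comparisons, with a star where a list gene was called. Krt8 and Krt18 reach the end of the scale in RISDD against SDD and in SDDIR against SDD, and Perp is below 0 in SDD against NIL and above it in the other 3 comparisons.

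Summed markers of other cell types differed between groups, beside the cadherins and Pkp1 to Pkp3, but 1 or 2 genes made up most of several sums. The summed signal of the 10 epithelial markers was 8605 to 12718 in RISDD, 2414 to 3742 in SDDIR, 21.4 to 33.8 in SDD and 77.3 to 143 in NIL, with Esrp1 at 0 in SDDIR, and Krt8 and Krt18 were most of it in the HRAS(G12V) groups. Of these 10, Cdh1, Krt8, Krt18, Krt19 and Grhl2 also stand in the lists above. The 5 basal keratinocyte markers in the table summed to 111 to 134 in RISDD, 44.9 to 64.0 in SDDIR, 21.4 to 28.0 in SDD and 12.6 to 24.5 in NIL, with Krt14 at 0 in RISDD, SDDIR and SDD. The RISDD sum was almost wholly Dsc3 (mean 96.0) and Dsg3 (23.2), which are desmosome genes of the first list, whereas Trp63 had a mean of 0.825 in RISDD and 21.1 in SDD. The 6 mesothelial markers summed to 1953 to 2210 in RISDD and 557 to 1097 in SDDIR, nearly all of it Msln (mean 2039.6 in RISDD, 809 in SDDIR, 208 in SDD and 436 in NIL). Other mesothelial markers did not share this order, with Upk3b at 2.10 in RISDD and 20.0 in NIL, Upk1b at 2.21 in RISDD and 13.4 in NIL, and Wt1 at 5.13 in RISDD and 5.44 in NIL. The 6 endothelial markers summed to 499.5 to 604 in RISDD, 160.1 to 168 in SDDIR, 76.7 to 104 in SDD and 50.5 to 82.5 in NIL, with Cdh5 the main part in RISDD (mean 459). The 7 cardiomyocyte markers in the table stayed at or below 54.4 in every library. Leukocyte markers summed to 769 to 1164 in RISDD, 351 to 549 in SDDIR and 277 to 645 in SDD. Cd68 (mean 620.5 in RISDD and 89.8 in SDD) and Laptm5 (275 in RISDD and 76.8 in SDD) were higher in RISDD, whereas Csf1r (12.4 in RISDD and 82.5 in SDD), Adgre1 (16.5 in RISDD and 160.3 in SDD), Tyrobp (16.3 in RISDD and 30.8 in SDD) and Ptprc (33.7 in RISDD and 39.6 in SDD) had lower means. The 8 neuron markers summed to 1358 to 1582 in RISDD, 2141 to 3180 in SDDIR, 4643 to 6401 in SDD and 2135 to 3812 in NIL. Tubb3 had the largest mean of them in each group (677.5 in RISDD, 1544 in SDDIR, 3192 in SDD and 2265 in NIL). Some had other orders. In RISDD, SDDIR, SDD and NIL the means were 191, 38.4, 54.7 and 49.8 for Stmn2. They were 124, 271, 198 and 58.8 for Elavl4 and 469, 706, 782 and 270 for Map2. The part of such cells in the levels of the desmosome genes was not tested.

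Over the 11 libraries, the likeness of the desmosome genes' patterns is given as a description, in which the groups and their shared libraries enter every correlation. Pearson's r of log2(signal + 1) was 0.95 between Dsg2 and Dsc2, 0.94 between Dsg2 and Pkp3 and 0.93 between Dsc2 and Pkp3, and Pkp1 had 0.89, 0.89 and 0.90 with Dsg2, Dsc2 and Pkp3. Dsp had 0.72 with Jup, -0.64 with Pkp4 and -0.37 with Dsg2. Genes with the most similar pattern were sought among at least 11385 others with a mean of at least 100 in some group. For Dsg2 they included Cyp51 (r = 0.995) and Hmgcs1 (0.993), and for Dsc2 they were Ints12 (0.991), Sc5d (0.986) and Nrdc (0.986). For Dsp they were Ahnak (0.976), Chst11 (0.972) and Ak1 (0.969), and for Jup Myl6 (0.984), 1810055G02Rik (0.979) and Lgals1 (0.976). For Pkp1 they were Clcf1 (0.981), Prrc2c (0.972) and Ceacam1 (0.968), and for Pkp2 Wnt3 (0.978), Gmpr (0.968) and Cs (0.966). For Pkp3 they were Slc7a14 (0.984), Zfand2a (0.983) and Pcdh8 (0.983), and for Pkp4, whose closest neighbours were the least alike, Pola2 (0.926), Ints7 (0.925) and Ksr1 (0.922).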

How the data were processed

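RNA-seq libraries were made from sorted cells, polyA-selected and directional per the labels' protocols. The submitters' processing notes name Trim Galore 0.6.10, Salmon 1.10.3 and the build GRCm39. The tool that made gene values, and its scaling, are not given in the sources used here. Signal, the unit deposited by the authors, is the read count of a gene over a library constant. All values of the 11 libraries were whole multiples of the value of 1 read (100% at a tolerance of 0.001), so reads could be recovered. The labels name 12 samples. One heading, SDDIR B, stood on 2 columns with identical values and was counted once. Whether they are of replicate B or C cannot be settled, so 1 SDDIR sample was not analysed here.

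The 8 genes and all lists were chosen with earlier results of these data known. The 14207 genes reaching a signal of 10 in 3 or more libraries were tested in 1 limma 3.58.1 fit (R 4.3.3) of all 4 groups on log2(value + 1), with variance trend and robust moderation. A call is a Benjamini-Hochberg adjusted p under 0.05 over all tested genes. Intervals are 95% intervals of that fit. The fit was tested on simulated data. The genes named from each list are up to 3 called genes per comparison with the largest absolute log2 change and a mean signal of 100 or more in 1 of the groups, and the other called genes of short lists. List genes called in SDD against NIL without NIL C but not in the main fit are named as well. The result of 1 gene alike in pattern is not reported here. Alternatives were other scalings, pseudocounts, filters and moderation, array weights, a fit of the compared groups only, a replicate block, each library left out, and edgeR 4.0.16 and DESeq2 1.42.0 on the recovered reads.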

Additional observations from a re-analysis of the deposited data

How the results depend on the processing

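The counts of called desmosome genes in SDD against NIL (3), SDDIR against SDD (4) and RISDD against SDD (6) stayed within 1.5 times of these values in every alternative run, and Dsp and Pkp2 in SDD against NIL and all 6 genes called in RISDD against SDD were called in each alternative that could test them. The genes behind a count could change. In SDD against NIL, the Pkp4 call was also lost with upper-quartile scaling, with neither trend nor robust moderation and when only the groups compared were fitted. Without NIL B, Dsg2 and Jup were called there and Pkp4 was not. The count in RISDD against SDDIR (2) was 1 with a pseudocount of 0.5, 4 with a pseudocount of 10, 1 with a minimum value of 50, 6 with array weights, 5 when only the groups compared were fitted, and 1 (without NIL A) to 6 (without NIL C) when a library was left out. The called genes of the 5 adhesion lists together were 13 in SDD against NIL, 3 when only the groups compared were fitted and 8 (without SDD B) to 17 (without NIL C) when a library was left out. They were 21 in SDDIR against SDD, and 9 (without SDDIR A) to 27 (without NIL C). In RISDD against SDDIR they were 8, but 21 with array weights, 21 when only the groups compared were fitted, and 1 (without RISDD B) to 19 (without NIL C). In SDD against NIL, 0 intermediate filament genes were called when only the groups compared were fitted, against 5 (Krt7, Krt8, Krt18, Krt19 and Vim). The calls of Arvcf, Zeb1, Zeb2 and Ctnna2 also ended in that fit, which left 1 of 4 calls in the adherens junction list. That of Cdh3 ended with array weights. The causes were not tested.

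Over all genes, SDD against NIL gave 1324 higher and 1174 lower, 2159 and 1955 without NIL C, 641 and 585 without SDD C, 434 and 370 when only the groups compared were fitted. SDDIR against SDD gave 1230 and 1969, 3053 and 3283 without NIL C, 556 and 1117 without SDDIR A and 494 and 1201 without SDDIR B. RISDD against SDD gave 2840 and 3206, and 4933 and 4848 with array weights. RISDD against SDDIR gave 659 and 718, 2118 and 2068 without NIL C, 120 and 188 without SDDIR A, 2718 and 2628 with array weights and 1092 and 1166 with DESeq2. The replicate letters were not taken to pair the samples, since not every same-letter pair correlated at over 0.1. Deviations of same-letter libraries correlated at 0.000225 to 0.271 (median 0.124, 9 of 15 pairs over 0.1) and those of other pairs at a median of -0.0644 (1 of 30 over 0.1), and 9 of 11 libraries correlated best with their own letter, a hint in these data of a shared letter effect. Deviations sum to 0 within a group, so the 2 medians are not independent. The SDDIR column of unsettled letter was taken as B, here and in the replicate block. With the letter as a replicate block, 3, 5, 6 and 2 of the desmosome genes were called in the 4 comparisons as ordered above, and 14, 19, 32 and 10 list genes, against 31 in RISDD against SDD without it. With 9 or fewer reads per library, Dsg2, Pkp1 and Pkp3 in SDD and NIL lie near the limit of this depth.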
